A study of Mus musculus and Acomys cahirinus with 18 samples.

Results

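The genes described are Mt1 and Mt2, which encode the metallothioneins MT-I and MT-II, and Ltf, which encodes lactoferrin. They are 3 of the 6385 gene symbols found in the tables of this study, which compared kidneys after unilateral ureteral obstruction with sham-operated kidneys in mouse and in the spiny mouse Acomys cahirinus. Members were matched by these symbols and, for Acomys, also by the UniProt entry names MT1, MT2 and TRFL attached to a locus. The genes themselves were selected on their listed fold changes, which earlier work on these data had shown, so the values below describe the genes and no test of their choice is given. All animals were wild type. The mice were of the C57BL/6 strain and, like the Acomys, males, and 3 libraries of whole perfused kidney were made for each of 6 groups, 18 in all. Obstruction was of the left ureter. Mice on day 2 were 10.1 weeks old, those on day 5 between 10.1 and 14 weeks, and sham mice between 7 and 14 weeks. Acomys ages ran from 10.3 to 14.3 weeks (day 2), 9.9 to 10.4 weeks (day 5) and 9.9 to 14.3 weeks (sham).

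Metallothioneins are small cysteine-rich proteins of the cytosol that bind zinc and copper, take up cadmium and react with oxidants. Their genes are switched on by zinc through the metal-sensing factor MTF-1, which binds short metal response elements, and also by glucocorticoids and inflammatory cytokines, and the tubule epithelium is a known site of their synthesis in the kidney. Lactoferrin is an iron-binding protein of the transferrin family that is secreted by glandular epithelia and stored in the secondary granules of neutrophils, where it withholds iron from microbes.

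Windows around the annotated starts of the 3 mouse genes are shown because Mt1 and Mt2, which rose together in Acomys, are the classical targets of metal response elements, with Ltf beside them for contrast. Each sequence runs from 250 bases before the annotated start to 30 bases into the transcript, on the plus strand of GRCm38.p6, and comes from RefSeq, in which 3 of 3 genes were found. Mt1 lies at chr8:94178839-94179118, Mt2 at chr8:94172368-94172647 and Ltf at chr9:111019042-111019321. Capitals mark every match to the core of the metal response element, searched as TGCACNC and TGCGCNC on both strands, and the matches shown do not overlap each other.
Mt1: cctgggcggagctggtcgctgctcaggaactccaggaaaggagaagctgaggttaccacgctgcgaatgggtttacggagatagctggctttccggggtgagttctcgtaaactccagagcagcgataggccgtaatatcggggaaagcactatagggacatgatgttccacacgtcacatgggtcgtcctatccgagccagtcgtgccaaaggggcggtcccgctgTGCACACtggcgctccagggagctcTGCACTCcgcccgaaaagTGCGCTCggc
Mt2: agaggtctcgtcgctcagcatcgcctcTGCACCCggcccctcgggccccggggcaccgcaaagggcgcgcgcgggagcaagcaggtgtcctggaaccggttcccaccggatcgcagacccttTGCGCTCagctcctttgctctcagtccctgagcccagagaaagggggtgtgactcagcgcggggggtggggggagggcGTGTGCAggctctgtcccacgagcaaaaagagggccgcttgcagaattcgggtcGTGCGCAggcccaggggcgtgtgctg
Ltf: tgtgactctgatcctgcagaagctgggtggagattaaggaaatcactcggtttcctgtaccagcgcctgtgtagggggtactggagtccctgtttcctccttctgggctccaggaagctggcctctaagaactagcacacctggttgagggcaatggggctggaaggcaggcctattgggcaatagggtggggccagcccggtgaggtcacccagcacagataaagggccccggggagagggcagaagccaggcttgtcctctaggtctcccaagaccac
The Mt1 window held 3 matches, all on the forward strand, beginning 23 bases before the annotated start and 2 and 20 bases after it. Because the matches run up to the end of this window, further ones beyond it, or near another start, would not have been counted. Mt2 held 4 matches, 2 on each strand, spread along the window. No match was found in the Ltf window. Among 32851 mouse promoters of the same length 24.1% held at least 1 match, 1.73% held 3 or more and 0.405% held 4 or more. With only A or C allowed at the open base N, 1 match was left in the Mt1 window and 3 in the Mt2 window, and 14.2% of those promoters held at least 1. A match is a run of letters and not a shown binding site, and the Acomys counterparts of these windows were not analysed here.

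The values that follow come from 4 tables of the authors' comparisons, 1 for each day and species, always over sham animals of the same species. The tables hold entries at a false discovery rate (FDR, a p-value adjusted for the number of genes tested) under 0.05 and give a log2 fold change, an FDR and a mean expression called logCPM (the log2 of read counts scaled to library size, CPM, over the libraries of the fit). They hold no value per library, so the spread within a group cannot be shown, and a gene absent from a table may have missed the threshold or may not have been tested. For each listed member an upper bound of the standard error, printed as SE at most, was derived by taking its FDR as the largest p it could have had. It assumes that the p is the normal p of the fold change divided by its standard error. That was not checked against the edgeR test used. The bound is therefore approximate, and least sure where sham levels were near 0. Of the 3 genes, 1 was listed as risen in mouse on either day and 3 were listed as risen in Acomys on both days. Of the 21900 protein-coding mouse genes of RefSeq, 9.79% (day 2) and 13.9% (day 5) were listed as risen in mouse. For Acomys these shares were 4.90% and 5.61%. As the 3 genes were selected on these values, their counts are no result about them. Among the listed entries alone, the share that rose was 58.3% on mouse day 2, 60.9% on mouse day 5, 89.9% on Acomys day 2 and 78.6% on Acomys day 5. A rise in itself was thus the common direction of a listed entry, above all in Acomys.

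Mt2 was the entry with the smallest FDR in both Acomys tables. In the authors' deposited table for day 2 it rose by 6.04 on the log2 scale (SE at most 1.18, FDR 3.02e-07), which is 65.8-fold, and for day 5 the authors' deposited table gave 5.62 (SE at most 1.13, FDR 6.05e-07), or 49.1-fold. Ranked by size of rise rather than by FDR, Mt2 stood lower, with 5.36% of the Acomys rises above it on day 2 and 7.64% on day 5. Of the 85 entries above it on day 2 and the 150 on day 5, 84 and 148 had a lower mean expression than Mt2, whose logCPM was 6.73 in the authors' deposited tables. Among the entries within 0.5 of that logCPM, 92 on day 2 and 105 on day 5, none had a larger fold change, as the plot of all entries shows.

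**Figure D1:**
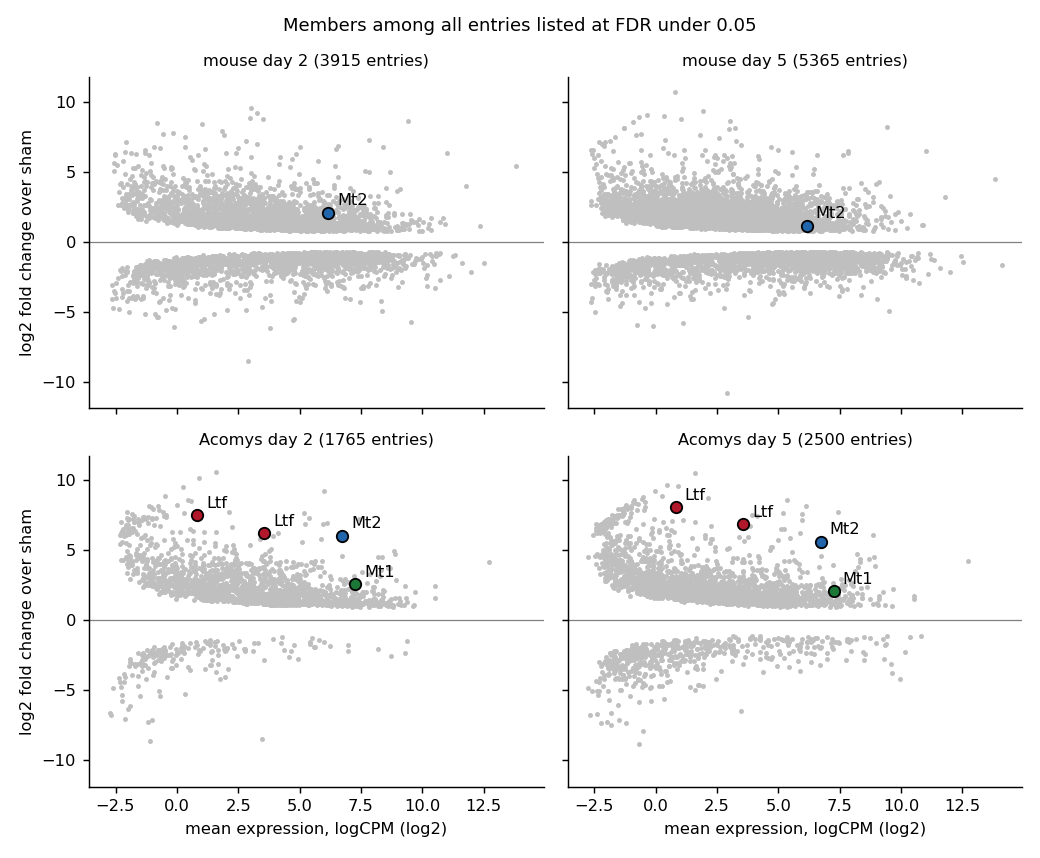
Log2 fold change over sham against mean expression (logCPM, log2) for every entry listed at FDR under 0.05 in the 4 tables, in grey, with Mt1 (green), Mt2 (blue) and Ltf (red, 2 loci in Acomys) marked. Mt2 lies inside the cloud of risen genes in mouse (2.07 and 1.14) and above the other entries within 0.5 logCPM of it in Acomys (6.04 and 5.62).

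In mouse the rise of Mt2 was smaller. The authors' deposited table listed it at 2.07 on day 2 (SE at most 0.574, FDR 0.000300), which is 4.21-fold, and 36.2% of the mouse rises of that day were larger. For day 5 the authors' deposited table gave 1.14 (SE at most 0.523, FDR 0.0293), or 2.20-fold, with 82.2% of the rises larger, and this value would not be listed at an FDR under 0.01. Its neighbours in the day 5 ranking were the replication genes Rfc3 (1.1403) and Mms22l (1.1394) in the authors' deposited table. Near the expression of Mt2 (logCPM 6.16, within 0.5 of it) the smallest rise listed in the authors' deposited mouse tables was 0.747 on day 2 and 0.752 on day 5.

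Set side by side, the Acomys rise of Mt2 exceeded the mouse rise by 3.97 on day 2 (SE at most 1.31) and by 4.48 on day 5 (SE at most 1.24), that is 15.6-fold and 22.3-fold. These differences carry no test because the gene was selected with these values known, and the species were quantified against different references. In Acomys the Mt2 locus, numbered 56908, carries the Mt2 symbol assigned by the authors but no UniProt name, and so does the Mt1 locus 73245. How reads of the closely similar metallothionein transcripts were divided between these loci is not stated in any source used here, which leaves the split of the rise between Mt1 and Mt2 in Acomys uncertain.

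Mt1 rose in Acomys with a smaller fold change. The authors' deposited tables gave 2.56 on day 2 (SE at most 0.595, FDR 1.68e-05), or 5.90-fold, and 2.10 on day 5 (SE at most 0.544, FDR 0.000113), or 4.29-fold. Ordered by FDR it stood at place 52 of 1765 entries on day 2 and at place 104 of 2500 on day 5. By size it was an ordinary rise, with 38.4% and 56.9% of the Acomys rises above it. In the mouse tables Mt1 was not listed on day 2 or on day 5, although Mt2, its neighbour on the chromosome, was.

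**Figure D2:**
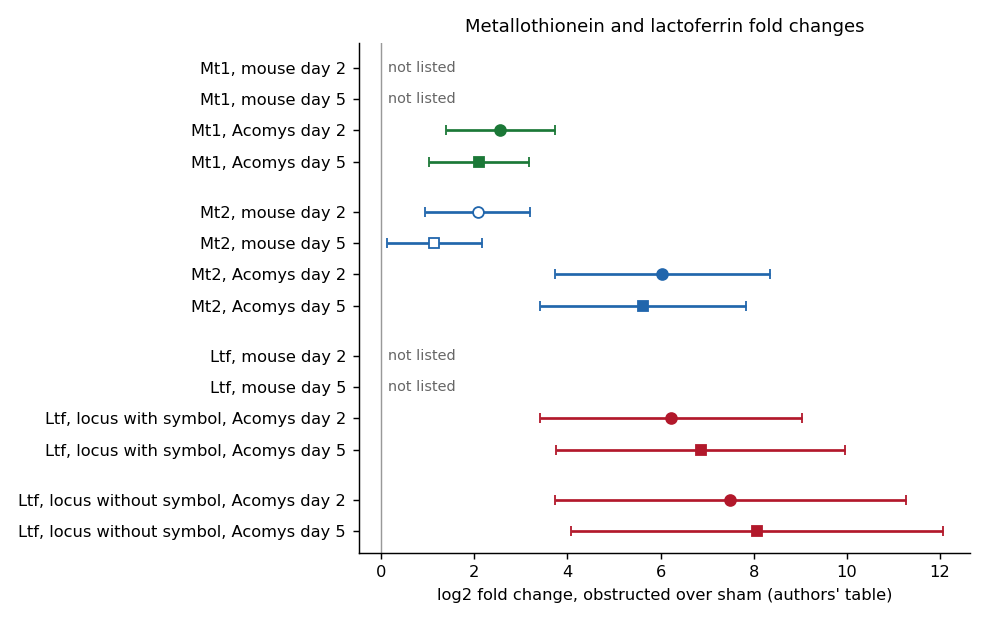
Log2 fold change of obstructed over sham kidney for each member and table, circles for day 2 and squares for day 5, open for mouse and filled for Acomys. Bars are 95% intervals from the upper bound of the standard error (normal approximation, 3 libraries a group); Mt2 in Acomys reads 6.04 and 5.62, Mt1 2.56 and 2.10, and Mt1 and Ltf are not listed in mouse.

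The listed fold changes of both metallothioneins were smaller on day 5 than on day 2. The day 5 minus day 2 difference of log2 fold changes was -0.93 for Mt2 in mouse (SE at most 0.776), -0.42 for Mt2 in Acomys (SE at most 1.63) and -0.46 for Mt1 in Acomys (SE at most 0.806). Ltf went the other way, by 0.64 (SE at most 2.14) and 0.57 (SE at most 2.80) at its 2 Acomys loci. These bounds combine the errors of both days as if they were independent, although both days of a species were set against the same 3 sham libraries. The error of the sham group thus enters on each day, and the bounds cannot decide whether a level changed between the days. No change between the days was tested.

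The metallothionein genes form a cluster on mouse chromosome 8 in the order Mt4, Mt3, Mt2 and Mt1. Mt3, known as the growth inhibitory metallothionein of the brain, moved against Mt2 in mouse. It fell, to -3.25 on day 2 (FDR 0.000114) and -3.32 on day 5 (FDR 5.46e-05) in the authors' deposited tables, at a low logCPM of -1.01. Mt4, a metallothionein of stratified epithelia, was not listed in any table, and Mt3 was not listed in Acomys. Of the 3 protein-coding genes on either side of the cluster, Ogfod1, Bbs2 and Nup93 were not listed in any table. Nudt21 was listed once, at 0.78 on mouse day 2 (FDR 0.0284) in the authors' deposited table, and the stress gene Herpud1 once, at -1.35 on mouse day 5 (FDR 0.000422). Slc12a3, the thiazide-sensitive sodium chloride cotransporter of the distal convoluted tubule, fell in mouse on both days (-2.03 and -1.90) and in Acomys on day 5 (-2.82, FDR 0.0175) in the authors' deposited tables. No gene flanking the cluster was listed with a rise as large as that of Mt2 in the same table.

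Because logCPM was identical on both days for all 3369 mouse genes and 1319 Acomys loci listed on both (to within 1e-09), it appears to come from a single fit per species. If that fit covered exactly the 9 libraries of the species with equal weight, the mean level of a gene in each group follows from its logCPM and its 2 fold changes. On that assumption Mt2 in mouse averaged 28.9 CPM in sham, 122 CPM on day 2 and 63.8 CPM on day 5. For Acomys the same arithmetic gave 2.75 CPM in sham, 181 CPM on day 2 and 135 CPM on day 5. The implied sham level of Mt2 was thus lower in Acomys than in mouse and the implied obstructed levels were higher. Mt1 in Acomys would have stood at 41.2 CPM in sham, 243 CPM on day 2 and 177 CPM on day 5. These levels have no error of their own, are not corrected for transcript length and rest on different references, so none was tested against another.

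**Figure D3:**
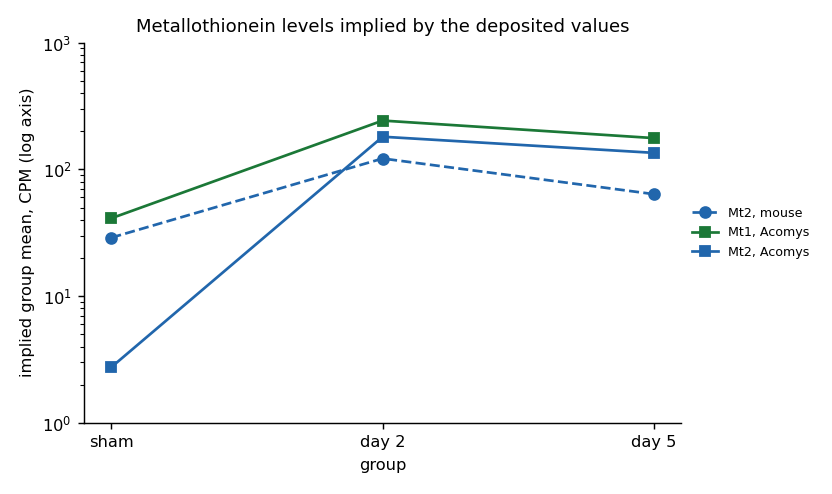
Group mean in CPM (log axis) of Mt2 in mouse (dashed) and of Mt1 and Mt2 in Acomys (solid) in the sham, day 2 and day 5 groups, computed from the deposited logCPM and fold changes on the assumption of 9 equally weighted libraries per species. The implied sham value of Mt2 is 28.9 CPM in mouse and 2.75 CPM in Acomys; levels of different genes or species are not on a common length scale.

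Ltf was listed in Acomys at 2 loci, both with the UniProt name of mouse lactoferrin, and was not listed in mouse on either day. Locus 7901, which carries the Ltf symbol, rose by 6.22 on day 2 (SE at most 1.43, FDR 1.46e-05) and by 6.86 on day 5 (SE at most 1.58, FDR 1.48e-05) in the authors' deposited tables, which is 74.4-fold and 116-fold. The second, locus 550162, has no symbol and stood at 7.50 (SE at most 1.93, FDR 9.92e-05) and 8.07 (SE at most 2.04, FDR 7.40e-05) in the authors' deposited tables. Only 1.26% of the Acomys rises on day 2 and 0.916% on day 5 were larger than that of locus 550162, and 4.60% and 3.97% were larger than that of locus 7901. The 2 loci differed in expression, with a logCPM of 3.56 and 0.82 in the authors' deposited tables. Whether they are 2 genes, alleles or fragments of 1 transcript is not given in the labels or tables. The implied obstructed levels of locus 7901 were 13.7 CPM on day 2 and 21.4 CPM on day 5, against 0.185 CPM in sham, a level so low that the fold change depends on how the fit treats counts near 0. Locus 550162 was lower still, at 2.13 CPM and 3.16 CPM against 0.0118 CPM in sham. Its larger fold changes and higher ranks are therefore the less sure ones.

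The Acomys entries next to the Ltf loci in size were of several kinds. Directly above locus 550162 on day 2 stood a locus named for the neutrophil and myeloid protein S100A9 at 7.52 (FDR 0.00347), and directly above it on day 5 stood Acrv1, an acrosomal protein gene, at 8.08 (FDR 3.11e-05) in the authors' deposited tables. Beside Mt2 on day 5 were the cytokine gene Lif at 5.63 (FDR 0.00116) and a locus named for the Kell blood group protein at 5.62 (FDR 0.00303) in the authors' deposited table.

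The other members of the transferrin family rose too, and in both species. Trf, which encodes the iron carrier transferrin, was listed at 2.10 on Acomys day 2 (FDR 7.06e-05) and 2.57 on Acomys day 5 (FDR 2.42e-05) in the authors' deposited tables. In mouse the authors' deposited tables had Trf on day 5 alone, at 1.55 (FDR 0.000443). Meltf, the membrane-anchored melanotransferrin gene, rose by 6.66 and 5.94 in mouse (FDR 8.37e-08 and 9.34e-08) and by 3.21 and 4.20 in Acomys (FDR 0.000819 and 0.000163) on days 2 and 5 in the authors' deposited tables. Melanotransferrin thus had the larger value in mouse, where lactoferrin was not listed. Of the receptors, Tfr2, an iron sensor, rose in all 4 of the authors' deposited tables by 2.76 to 3.30, and Tfrc, the transferrin receptor through which cells take up iron, fell by 1.96 on mouse day 5 (FDR 3.59e-05) and was not listed elsewhere. Counting Ltf, 4 of the 5 genes of this list rose in Acomys on each day and 0 fell, while in mouse 2 rose and 0 fell on day 2 and 3 rose and 1 fell on day 5. Risen were thus 80% on each Acomys day, against 4.90% and 5.61% of all protein-coding genes. That Acomys share is raised by Ltf itself, which was selected on its fold changes, so it is a description only. Apart from Ltf, Trf, Meltf and Tfr2 rose in Acomys on each day and Tfrc was not listed. In mouse they were 40% and 60%, against 9.79% and 13.9%. The fall on mouse day 5 is 20% of the list, against 7.76%.

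To read such counts, the share of the 21900 protein-coding mouse genes of RefSeq listed as risen was 9.79% on mouse day 2, 13.9% on mouse day 5, 4.90% on Acomys day 2 and 5.61% on Acomys day 5. Listed as fallen were 5.89%, 7.76%, 0.187% and 0.785%. How many genes or loci the authors tested is not stated, so the shares of tested genes are unknown. The lists below were drawn up with earlier results of these data known and their members were not tested as sets. For Acomys a list gene was also taken as listed where a locus without a symbol bore its UniProt name, whereas the shares above count symbols alone. Where this adds to a list, its Acomys counts by symbol alone, which are on the base of those shares, are given beside it.

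Other genes of iron handling were listed in part. Of 21 list genes 6 rose and 0 fell on mouse day 2 (median 1.94, against 1.03 for all entries of that table), and 4 rose and 2 fell on mouse day 5 (median 1.59, against 1.14). In Acomys 6 rose and 0 fell on day 2 (median 1.88, against 1.99) and 5 rose and 0 fell on day 5 (median 2.27, against 1.95). Risen were 28.6% and 19.0% of the list in mouse, against 9.79% and 13.9% of all genes. For Acomys the figures were 28.6% and 23.8%, against 4.90% and 5.61%. Fallen on mouse day 5 were 9.52%, against 7.76%. Lcn2, the siderophore-binding lipocalin, was the highest of them in each of the authors' deposited tables, at 7.29 and 6.36 in mouse and 6.88 and 7.17 in Acomys. A second Acomys locus with the same lipocalin name but no symbol stood at 7.64 and 7.67 in the authors' deposited tables. The heme-binding hemopexin gene Hpx rose by 4.16 and 2.48 in mouse and by 3.53 and 2.32 in Acomys in the authors' deposited tables. Fth1, the ferritin heavy chain gene, rose by 1.13 on mouse day 2 (FDR 0.000334) and Slc40a1, the iron exporter ferroportin, by 0.86 and 0.76 on the 2 mouse days in the authors' deposited tables, and neither was listed in Acomys. The iron importer gene Slc11a2 (1.64 and 2.01) and the ferric reductase gene Cybrd1 (1.83 and 2.00) were listed as risen in Acomys in the authors' deposited tables and not in mouse. Falls were seen in mouse on day 5, for the iron regulatory protein gene Aco1 at -0.96 and the ferritin receptor gene Ncoa4 at -0.79 in the authors' deposited table.

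Zinc transporters were listed in both directions in mouse. Of 25 genes, the metal sensor Mtf1 included, 2 rose and 3 fell on mouse day 2 (8% and 12%, against 9.79% and 5.89% of all genes), and 3 rose and 3 fell on mouse day 5 (12% each, against 13.9% and 7.76%). In Acomys 2 rose on day 2 (8%, against 4.90%) and 1 rose on day 5 (4%, against 5.61%), with 0 falls, and nothing particular to the list is read from these counts. Mtf1 itself and Slc30a1, the zinc exporter known as an MTF-1 target, were not listed in any table. Slc39a6, a zinc importer, was the transporter listed in all 4 of the authors' deposited tables, at 1.30 and 1.58 in mouse and 1.48 and 1.72 in Acomys. The importer gene Slc39a14 rose by 1.46 on Acomys day 2 (FDR 0.0144), and in mouse Slc39a4 rose on both days, by 2.12 on day 5, while Slc39a5 fell, to -1.29 and -1.40, in the authors' deposited tables.

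Of 11 copper genes 3 rose and 2 fell in mouse on each day, and 2 rose and 0 fell in Acomys on each day. Risen were 27.3% of the list in mouse, against 9.79% and 13.9% of all genes, and 18.2% in Acomys, against 4.90% and 5.61%. Fallen in mouse were 18.2%, against 5.89% and 7.76%. With 11 genes these counts are small. Cp, which encodes the copper ferroxidase ceruloplasmin, rose in all 4 of the authors' deposited tables, by 3.85 and 3.76 in mouse and by 4.97 and 6.08 in Acomys. Steap4, a metalloreductase gene, rose by 5.39 and 5.78 in Acomys and by 1.88 on mouse day 5 in the authors' deposited tables. The copper chaperone gene Ccs fell in mouse, to -1.03 and -1.28, and so did the importer gene Slc31a1, at -0.77 and -0.99, in the authors' deposited tables.

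**Figure D4:**
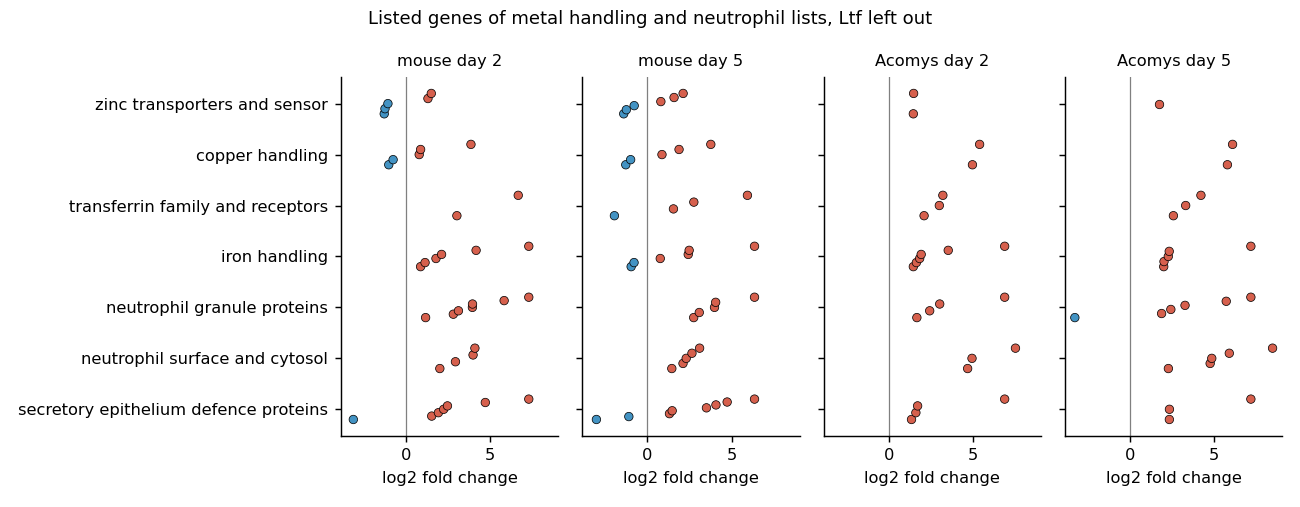
Log2 fold changes over sham of the listed genes of 7 lists in the 4 tables, 1 point a gene, red for rises and blue for falls, Ltf left out. Acomys holds 1 fall among these lists (Cd177 on day 5, -3.28), and the highest iron gene in every panel is Lcn2.

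Lists were also drawn up for inputs that are known to switch on metallothionein genes. In the IL-6 and STAT3 acute phase list 12 of 15 genes rose in mouse on each day and 0 fell (medians 4.12 and 3.35, against 1.03 and 1.14 for all entries), while in Acomys 5 rose on day 2 and 7 on day 5 with 0 falls (medians 2.02 and 1.78, against 1.99 and 1.95). These are 80% of the list on each mouse day, 33.3% on Acomys day 2 and 46.7% on Acomys day 5, against risen shares of all genes of 9.79%, 13.9%, 4.90% and 5.61%. Socs3, the feedback inhibitor induced by STAT3, rose by 5.43 and 5.19 in mouse in the authors' deposited tables and was not listed in Acomys, and Saa1, an acute phase gene, rose by 9.51 and 5.39 in mouse against 1.91 and 2.53 in Acomys. Osmr (3.35 and 3.60 in mouse, 2.02 and 2.70 in Acomys) and Cebpd (3.43 and 3.02, against 1.75 and 1.75) also had larger values in mouse. Stat3 was at 1.75 and 1.57 in mouse and at 1.22 on Acomys day 5 alone. Il6, Saa3, Cebpb and Fgb were listed on both mouse days, and Saa2 on mouse day 2, but none of them in Acomys. Lif, Lbp and Il6ra had closer values, those of Lif and Il6ra on day 5 being larger in Acomys. Lif was at 6.24 and 5.06 in mouse and 4.72 and 5.63 in Acomys, and Lbp, which encodes the lipopolysaccharide-binding protein, at 2.29 and 2.71 in mouse and 2.04 and 1.75 in Acomys in the authors' deposited tables. The IL-6 receptor gene Il6ra was listed on day 5 alone, at 1.24 in mouse and 1.78 in Acomys in the authors' deposited tables. Of 8 glucocorticoid receptor genes and targets 1 fell on mouse day 2 (Tsc22d3, -1.26 in the authors' deposited table) and 3 fell on mouse day 5, with 0 listed in Acomys. These falls are 12.5% and 37.5% of the list, against 5.89% and 7.76% of all genes. Of 10 hypoxia genes 4 fell in mouse on each day, Car9 being at -2.17 and -1.84 in the authors' deposited tables, and 0 were listed in Acomys. In mouse these falls are 40% of the list on each day, against the same fallen shares. With 4.90% and 5.61% of all genes listed as risen in Acomys and 0.187% and 0.785% as fallen, a count of 0 among 8 or 10 genes is near the share of all genes. Of 10 NRF2 genes 3 rose and 1 fell on mouse day 2, 1 rose and 3 fell on mouse day 5 (median -1.19), 1 rose on Acomys day 2 and 2 rose on Acomys day 5, with 0 falls in Acomys. Risen were 30% and 10% in mouse (against 9.79% and 13.9%) and 10% and 20% in Acomys (against 4.90% and 5.61%). Fallen in mouse were 10% and 30%, against 5.89% and 7.76%. A count of 1 of 10 is near the share of all genes. Hmox1, the heme oxygenase gene, rose by 2.11 on mouse day 2 in the authors' deposited table and was not listed on mouse day 5 or in Acomys. Srxn1, sulfiredoxin, rose by 2.12 and 1.82 in Acomys and by 1.004 on mouse day 2 in the authors' deposited tables. The cystine transporter gene Slc7a11 rose by 2.04 and 1.46 in mouse in the authors' deposited tables. Me1, the malic enzyme gene, fell in mouse on both days, to -1.08 and -1.26, and the quinone reductase gene Nqo1 (-1.12) and Osgin1 (-1.32) fell on mouse day 5 in the authors' deposited tables.

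Neutrophils are a known source of lactoferrin, and in whole kidney a change in the number of a cell type cannot be told apart from a change in RNA per cell. Of 10 neutrophil markers 3 were listed on each mouse day, 2 on Acomys day 2 and 3 on Acomys day 5, all as risen, and by symbol alone the Acomys counts were 0 and 1. The mouse counts are 30% of the markers, against risen shares of all genes of 9.79% and 13.9%. The Acomys counts by symbol alone stand against 4.90% and 5.61% and are near them. S100a9 stood at 3.98 and 3.10 in mouse and 7.52 and 8.46 in Acomys in the authors' deposited tables, and S100a8 at 2.93 and 2.11 in mouse and 4.94 and 5.89 in Acomys, the Acomys loci being matched by UniProt name. Csf3r, the receptor for granulocyte colony-stimulating factor, rose by 2.01 and 2.64 in mouse and by 2.27 on Acomys day 5 in the authors' deposited tables. The granule genes Mpo, Elane, Camp and Ngp were not listed in any table, nor were Ly6g, Cxcr2 and Retnlg. Of 10 genes of the neutrophil surface and cytosol, 6 of them among these markers, 4 rose on mouse day 2, 5 on mouse day 5, 3 on Acomys day 2 and 5 on Acomys day 5 (1 and 3 in Acomys by symbol alone), with 0 falls. In mouse these are 40% and 50% of the list, to be read against the same risen shares. Trem1, a receptor of neutrophils and other myeloid cells, rose by 4.09 on mouse day 2 and by 4.68 and 4.75 in Acomys, and the formyl peptide receptor gene Fpr2 on day 5 by 2.30 in mouse and 4.85 in Acomys in the authors' deposited tables. Both genes had a low logCPM, -0.91 and -1.29 in mouse and -1.37 and -2.08 in Acomys, so their fold changes are unsure too. Of 16 granule genes, 7 rose on mouse day 2, 5 on mouse day 5, 4 on Acomys day 2 and 5 on Acomys day 5, and 1 fell, Cd177 on Acomys day 5 by 3.28 (FDR 0.0477) in the authors' deposited table. Risen were 43.75% and 31.25% in mouse and 25% and 31.25% in Acomys, against the same shares. The fall is 6.25% of the list, against 0.785% of all genes. It stood at a logCPM of 0.53 and was not kept at an FDR under 0.01. In mouse Cd177 rose by 3.95 on day 2 (FDR 0.00233), at a logCPM of -1.88, in the authors' deposited table. Mmp9, a protease of neutrophil granules that other cells also make, rose by 2.81 and 3.08 in mouse and by 3.02 and 5.71 in Acomys in the authors' deposited tables. Pglyrp1 of the same list rose by 2.43 and 3.26 in Acomys and was not listed in mouse. Prtn3 rose by 3.94 and 4.05 in mouse, and Chil3 by 5.82 on mouse day 2, and neither was listed in Acomys. Lcn2, given above as an iron gene, also belongs to this list and rose in every table. The part of neutrophils in the Ltf values was not tested.

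Secreted defence proteins of epithelia, the other known company of lactoferrin, gave 6 rises and 1 fall of 12 genes on mouse day 2, 6 and 2 on mouse day 5, 4 and 0 on Acomys day 2 and 3 and 0 on Acomys day 5 (3 and 2 rises in Acomys by symbol alone). In mouse 50% rose on each day, against 9.79% and 13.9% of all genes, and 8.33% and 16.7% fell, against 5.89% and 7.76%. The Acomys counts by symbol alone stand against risen shares of 4.90% and 5.61%. Lcn2, given above as an iron and a granule gene, is counted in this list too. The lysozyme gene Lyz2 rose by 2.46 and 4.07 in mouse and by 1.71 and 2.33 in Acomys in the authors' deposited tables. By symbol alone, Lcn2 and Lyz2 made up the Acomys rises of day 5. Which cells made the transcripts of this list was not tested. Pigr, the transporter of secretory antibodies, rose by 1.61 on Acomys day 2 (FDR 0.0138) and fell by 1.10 on mouse day 5 (FDR 0.0400) in the authors' deposited tables. Wfdc2 rose by 1.92 and 1.47 in mouse and by 1.35 on Acomys day 2, and Slpi, the leukocyte protease inhibitor gene, by 2.33 on Acomys day 5 in the authors' deposited tables. Wfdc15b fell in mouse, to -3.13 and -3.03, in the authors' deposited tables. Of 10 kidney markers 6 were listed in mouse on each day, all as fallen, at a logCPM of 9.15 to 12.5, and 0 and 4 were listed in Acomys on days 2 and 5, all 4 as fallen and at a logCPM of 8.48 to 10.2 in the authors' deposited tables. Fallen were thus 60% on each mouse day, against 5.89% and 7.76% of all genes, and 40% on Acomys day 5, against 0.785%. The count of 0 on Acomys day 2 is near the fallen share of 0.187%.

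Genes with the most similar values were found by Euclidean distance over the log2 fold changes. For Mt2, listed in all 4 tables, 580 symbols were listed in all 4 by 1 entry each. The nearest was Sbsn, which encodes suprabasin, at a distance of 0.836. Sbsn had 1.64 and 0.99 in mouse and 6.53 and 6.12 in Acomys in the authors' deposited tables. Next came the sphingosine kinase gene Sphk1 (distance 1.22), Igsf23 (1.61), Depdc1a (1.78) and Timd2 (1.93). For Mt1 and Ltf the distance ran over the 2 Acomys tables, and 864 symbols were listed in both by 1 entry each. Nearest to Mt1 were Arl4c, BC055324, the angiotensin-converting enzyme gene Ace, the keratin gene Krt8 and Rcn3, at distances of 0.034 to 0.162. Nearest to Ltf locus 7901 were Tspo2, Timd4, Igsf23, H19 and Serpina10, at 0.102 to 0.706, and to locus 550162 Acrv1, Gbx2, Serpina1b, Gm4926 and Il1r2, at 0.106 to 0.642. The 2 days share their sham libraries, so nearness over 2 tables of 1 species is a weak likeness.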

How the data were processed

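Kidney RNA was sequenced in 18 libraries, 3 for each of 6 groups, grouped by the titles of the samples. The submitters' processing notes name Salmon, edgeR and the mouse build mm9 as used by the authors. Versions, filters, the number of genes tested and the Acomys reference are not given there, and without read totals the depth is unknown. The authors deposited log2 fold changes, with the base taken from edgeR's convention, and a logCPM that is also on a log2 scale. The third deposited column, the FDR, is a p-value adjusted by the authors, at most 0.04999. That folds are obstructed over sham was read from how the tables are named.

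No model was refitted. The standard error bound is the fold change divided by the normal quantile of the FDR, and was added after seeing the data, as were the implied group levels and the UniProt names for list genes. It is a bound only if the deposited p-values behave as normal p-values of the fold change over its standard error. Members, lists and comparisons were chosen with earlier results of these data known. A UniProt name counted only where no letter or digit stood before it, which left out the 2 loci Dnmt1 and Bhmt2. Named genes were the members, their relatives and cluster neighbours (the neighbours were added after seeing the data), examples from the 2 highest and 2 lowest of each list and table, with further list members named after their values were seen, the 5 nearest in pattern and the adjoining ranks. Python 3.11.15, pandas 2.3.3 and scipy 1.17.1 were used, and the motif search was tested on a made-up sequence with planted matches.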

Additional observations from a re-analysis of the deposited data

How the results depend on the processing

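The 3 genes were listed alike with a minimum absolute log2 fold change of 1 and with the symbol alone. At an FDR under 0.01 Mt2 in mouse on day 5 (1.14) was lost, leaving 0 of the members on that day, and the listed pathway genes on Acomys day 2 numbered 19 in place of 30, in both cases because the stricter threshold keeps fewer entries. Taking the median over the 2 Ltf loci gave 6.86 on day 2 and 7.46 on day 5, against 6.22 and 6.86 at locus 7901 alone. Matching UniProt names anywhere in a locus name would have added 1 locus on each Acomys day, and the symbol alone would have removed 1. Of 112 counts of risen or fallen list and marker genes, 17 moved by over 1.5 times at an FDR under 0.01, 5 with a minimum change of 1 and 4 with the symbol alone. Among them the Acomys neutrophil markers went from 2 to 1 on day 2 and the Acomys kidney markers from 4 to 2 on day 5 at an FDR under 0.01, and the neutrophil markers went to 0 and 1 by symbol alone. By the largest absolute difference, 4 of the 5 nearest genes were shared for Mt1, Mt2 and Ltf locus 7901 and 5 for locus 550162. With A or C at the open base the metal response element cores fell from 3 to 1 in the Mt1 window and from 4 to 3 in the Mt2 window, so that 2 of 3 promoters still held one.

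No paired analysis was possible because the tables hold no values per library, and for the same reason no replicate was left out. Depth is unknown, and genes short of the threshold cannot be told from genes not tested.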
